A study of Mus musculus with 16 samples.

Results

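Genes of epithelial sodium uptake and of corticosteroid handling were followed in the colon of mice given dextran sulfate sodium (DSS), with or without methylthioadenosine (MTA). The group has 9 genes, chosen by name: the sodium channel subunits Scnn1a, Scnn1b and Scnn1g, the sodium pump subunit Atp1b1, the receptors Nr3c1 and Nr3c2, the kinase Sgk1, and the steroid enzymes Hsd11b2 and Hsd17b2. Every probe that the platform annotation assigns to these symbols was taken. The annotation assigned 1 probe to each of 8 genes and none to Nr3c2, the mineralocorticoid receptor, which was therefore not measured here. These 8 probes stand among 25697 on the arrays, of which 23978 carry a gene symbol, for 16593 genes.

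The samples were total RNA of whole colon of male C57Bl/6J mice, each hybridised to an Illumina bead array. There were 6 arrays of mice given DSS and MTA, 6 of mice given DSS, and 4 of untreated control mice. DSS is a sulfated polysaccharide that damages the lining of the mouse colon and is used to produce colitis, and MTA is a sulfur-containing nucleoside formed in polyamine synthesis. The labels give no dose, time or age and do not say whether each array had its own animal, so the p-values measure the spread between these arrays, whose number limits the precision.

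Sodium enters surface cells of the distal colon through the epithelial sodium channel (ENaC), built from alpha, beta and gamma subunits, and leaves them through the basolateral sodium pump. Aldosterone acts through the mineralocorticoid receptor to raise this uptake, and the kinase Sgk1 keeps the channel at the cell surface by inhibiting the ubiquitin ligase Nedd4l. Glucocorticoids would also bind that receptor, and the enzyme encoded by Hsd11b2 inactivates them in aldosterone target cells.

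The promoter windows shown are those of Scnn1g and Scnn1b, whose levels varied together between arrays, and of Sgk1, which corticosteroid receptors are known to induce. They come from the RefSeq table for build GRCm38.p6, which held a window for 5 of the 9 genes, and run from 250 bases before a transcript start to 50 after it. Scnn1g and Scnn1b are neighbours on chromosome 7 with 0 annotated genes between them. The Scnn1g window lies at chr7:121734229-121734528 and the Scnn1b window at chr7:121864788-121865087, both on the plus strand, with capitals marking the GC box GGGCGG or its reverse complement CCGCCC. The Sgk1 window, 1 of 6 for that gene, lies at chr10:21993640-21993939 on the plus strand. Its capitals mark the palindromic steroid receptor element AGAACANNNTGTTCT, whose arms are the letters AGAACA on opposite strands.
Scnn1g: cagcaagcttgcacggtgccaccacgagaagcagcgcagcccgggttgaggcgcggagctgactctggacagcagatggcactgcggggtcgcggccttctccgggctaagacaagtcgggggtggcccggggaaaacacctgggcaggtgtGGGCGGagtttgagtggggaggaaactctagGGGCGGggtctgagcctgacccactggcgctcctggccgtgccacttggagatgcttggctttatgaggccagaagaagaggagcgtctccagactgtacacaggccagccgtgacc
Scnn1b: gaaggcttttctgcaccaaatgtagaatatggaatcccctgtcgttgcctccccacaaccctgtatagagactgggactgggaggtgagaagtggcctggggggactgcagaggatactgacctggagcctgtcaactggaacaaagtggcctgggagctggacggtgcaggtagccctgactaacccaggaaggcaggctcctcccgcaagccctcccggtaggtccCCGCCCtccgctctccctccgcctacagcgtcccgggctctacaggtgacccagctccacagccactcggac
Sgk1: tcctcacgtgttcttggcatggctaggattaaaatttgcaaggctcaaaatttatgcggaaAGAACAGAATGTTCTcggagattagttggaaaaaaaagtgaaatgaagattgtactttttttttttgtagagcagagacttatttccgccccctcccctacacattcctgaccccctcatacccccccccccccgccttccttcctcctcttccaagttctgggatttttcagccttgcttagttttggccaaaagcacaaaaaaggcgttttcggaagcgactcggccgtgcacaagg

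The GC box occurred 2 times in the Scnn1g window and 1 time in the Scnn1b window, and 35.7% of all 32851 windows held it on either strand. Neither window held the single arm AGAACA, which 19% of all windows held. The palindrome began at position 62 of the Sgk1 window, and 3 of the 32851 windows held it (0.00913%). That window is shown because it held the palindrome, and the other 5 Sgk1 windows held 0. Each palindrome also counts as single arms. These matches describe letters and not bound sites.

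All values below are log2 of the deposited intensities, which the authors had normalized between arrays. Array medians were 112.012 to 112.22 (log2 6.81). Arrays of the same group correlated at 0.912 to 0.991 over the 12848 probes with a mean above the median of all probes. Differences are in log2 with their standard error from limma, with p-values adjusted over all 25697 probes by the Benjamini-Hochberg method at a threshold of 0.05. Intensities keep some background, so differences of dim probes are understated, and levels are not compared between genes. In whole colon RNA, fewer cells of a type and less RNA per cell cannot be told apart.

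Sgk1 and Hsd11b2 were lower in most treated arrays than in control arrays, Hsd17b2 was lower in most DSS arrays than in control arrays and above the DSS mean in all 6 arrays of DSS with MTA, and the sodium channel subunits spread widely within every group. By limma 0 of the 8 genes passed the adjusted threshold in any comparison. Of all probes, 6.86% passed for DSS against control. The share was 0.144% when DSS with MTA was set against DSS and 2.08% when it was set against control. At an unadjusted limma p under 0.05, 3 of 8 were lower for DSS against control (Hsd11b2, Hsd17b2 and Sgk1), where 11.3% of all probes were lower. At the same level 1 of 8 was higher in DSS with MTA than in DSS (Hsd17b2), beside 5.54% of all probes. Relative to control, 2 of 8 were lower in DSS with MTA (Hsd11b2 and Sgk1), beside 8.05%. Groups did not overlap for 1 gene, Hsd11b2 in DSS with MTA against control, beside 4.99% of all probes in either direction and 2.3% lower. For DSS against control 0 of 8 genes were free of overlap, beside 9.31% of all probes, and 0 of 8 between DSS with MTA and DSS, beside 0.642%. All 8 estimates for DSS against control were below 0, as were 56.5% of all probes, with a median of -0.47 against -0.02 over all probes. When DSS with MTA was set against DSS, 3 of 8 were below 0 (46.7% of all probes), with a median of 0.05 against 0.01. When it was set against control, 6 of 8 were (52% of all probes), with a median of -0.12 against -0.01. The comparisons share arrays, so these counts are not independent of each other.

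**Figure D1:**
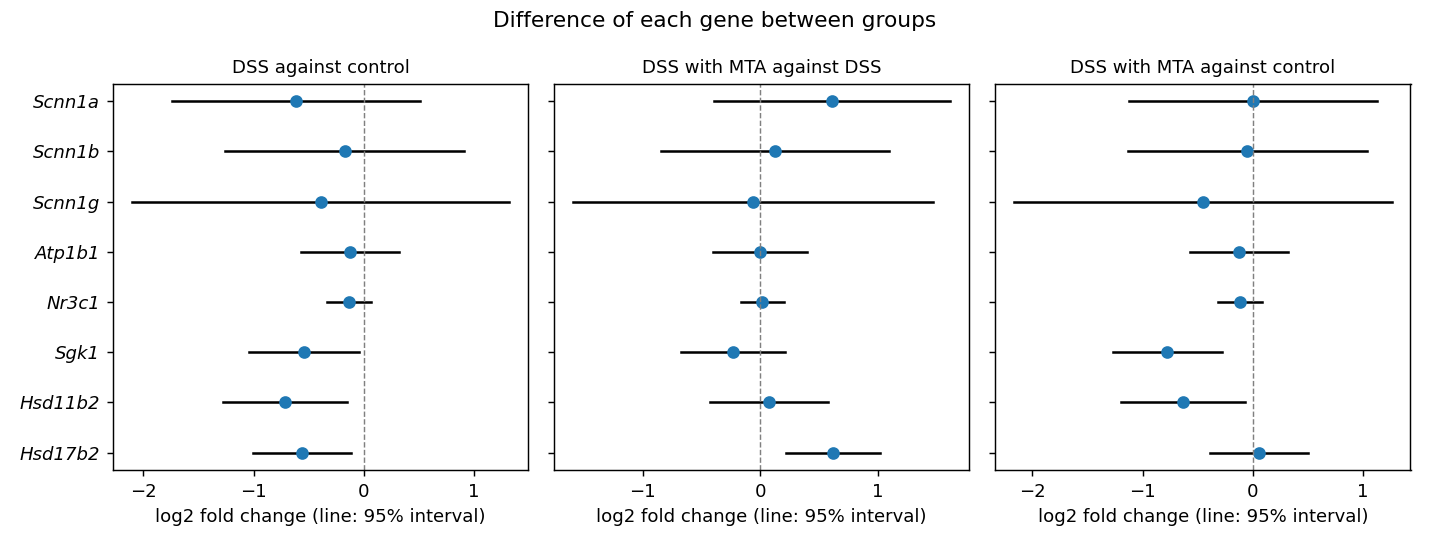
Log2 fold change (horizontal axis, point) of the 8 genes with its 95% interval (line) in the 3 comparisons. All 8 points lie below 0 for DSS against control, and the interval of Hsd17b2 for DSS with MTA against DSS runs from 0.22 to 1.02.

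The sodium channel subunits varied more between arrays of the same group than between groups. Scnn1g, the gamma subunit, ran from 5.79 (median 6.96) to 8.47 in DSS with MTA and from 5.78 (median 6.66) to 9.09 in DSS. The 4 control arrays gave 5.94, 6.05, 8.22 and 9.69. All groups overlapped, and each held arrays below the array median of 6.81 (3 of 6, 3 of 6 and 2 of 4) as well as bright ones. The difference was -0.39 ± 0.81 for DSS against control (95% interval -2.11 to 1.32, limma adjusted p = 0.838). It was -0.06 ± 0.72 for DSS with MTA against DSS (-1.59 to 1.47, limma adjusted p = 0.984) and -0.45 ± 0.81 for DSS with MTA against control (-2.17 to 1.26, limma adjusted p = 0.861).

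Scnn1b, the beta subunit, ran from 6.97 (median 8.31) to 9.22 in DSS with MTA and from 7.42 (median 8.03) to 8.73 in DSS. Its control arrays gave 6.92, 7.99, 8.35 and 9.66, so that controls spanned both treated groups. The difference was -0.18 ± 0.51 for DSS against control (95% interval -1.26 to 0.91, limma adjusted p = 0.894). It was 0.12 ± 0.46 between DSS with MTA and DSS (-0.85 to 1.10, limma adjusted p = 0.948) and -0.05 ± 0.51 between DSS with MTA and control (-1.14 to 1.04, limma adjusted p = 0.977).

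Scnn1a, the alpha subunit on which channel assembly depends, ran from 7.98 (median 9.26) to 10.29 in DSS with MTA and from 7.76 (median 8.40) to 9.97 in DSS. Its control arrays gave 8.06, 9.51, 9.41 and 9.75. The groups overlapped, with 2 of 6 DSS arrays below every control array and 1 above. The difference was -0.62 ± 0.53 for DSS against control (95% interval -1.74 to 0.51, limma adjusted p = 0.559). It was 0.62 ± 0.47 for DSS with MTA against DSS (-0.39 to 1.62, limma adjusted p = 0.652) and 0.00 ± 0.53 between DSS with MTA and control (-1.12 to 1.12). Leaving out 1 array moved the first from -0.99 (without control replicate 1) to -0.42 (without control replicate 4) and the second from 0.39 (without replicate 2 of DSS with MTA) to 0.90 (without DSS replicate 6).

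The within-group SD was 1.37 for Scnn1g, 0.90 for Scnn1a and 0.87 for Scnn1b. Among the 12848 probes with a mean above the median of all probes, the median SD was 0.215, and 99.6%, 98.6% and 98.4% of these probes varied less than the gamma, alpha and beta subunit. The other 5 genes had SDs of 0.148 (Nr3c1) to 0.446 (Hsd11b2), which exceeded those of 21.6% to 89.2% of these probes.

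The subunits did not vary independently. As deviations from the group means over 16 arrays, Scnn1a and Scnn1b correlated at r = 0.81 (rho = 0.79; permutation p = 0.00065 and 0.0016, adjusted p = 0.0019 and 0.0029). Scnn1b and Scnn1g correlated at r = 0.74 (rho = 0.77; permutation p = 0.0025 and 0.0019, adjusted p = 0.0038 and 0.0029). For Scnn1a and Scnn1g the relation did not pass (r = 0.46, rho = 0.47; permutation p = 0.081 and 0.065, adjusted p = 0.081 and 0.078). Without the 2 arrays farthest from the median of the second gene, r was 0.81, 0.74 and 0.55. The p-values came from 100000 resamples within groups, two-sided, and were adjusted over 6 relations. They treat the 16 arrays as independent, although arrays numbered 1 deviated alike between groups (r = 0.36, 0.63 and 0.42 over 12848 probes). Arrays numbered 2 did so in the treated groups (0.49). Variation shared by such arrays would make these p-values, and those for the Hox mean below, too small.

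Scnn1g and Scnn1b also moved with the mean level of 7 Hox genes of the distal body axis, which mark position along the gut. Scnn1g followed that mean at r = 0.90 (rho = 0.90; permutation p = 2e-05 and 0.00011, adjusted p = 0.00012 and 0.00066) and Scnn1b at r = 0.77 (rho = 0.83; permutation p = 0.0013 and 0.00047, adjusted p = 0.0026 and 0.0014). Scnn1a did not pass (r = 0.48, rho = 0.45; permutation p = 0.080 and 0.094, adjusted p = 0.081 and 0.094). Without the 2 arrays farthest from the median Hox mean, r was 0.90, 0.62 and 0.29 for the gamma, beta and alpha subunit. The same deviations ran against the mean of 11 epithelial markers, at r = -0.74 for Scnn1g (rho = -0.79), -0.72 for Scnn1b (rho = -0.73) and -0.49 for Scnn1a (rho = -0.46). With the mean of 6 fibroblast markers they stood at r = 0.57, 0.52 and 0.43 (rho = 0.59, 0.54 and 0.52). With the mean of 8 surface colonocyte markers r was positive, at 0.15, 0.26 and 0.59 in the same order. Smooth muscle markers gave 0.23, 0.29 and 0.55, and lymphocyte markers 0.45, 0.48 and 0.34. Endothelial markers gave 0.39, 0.27 and 0.30, and neutrophil and macrophage markers 0.13, 0.32 and 0.14. These marker values are descriptions without a test. Single Hox genes, also given without a test, differed: Hoxd13 and Hoxd12 followed Scnn1g at 0.93 and 0.89, while Hoxa13 followed Scnn1a at 0.89, and Hoxd11 had values of -0.34 to -0.14 with the 3 subunits. Hoxd10, the brightest of the 7 (mean 9.72), stood at 0.41, 0.09 and -0.37 with Scnn1g, Scnn1b and Scnn1a. In the same order Hoxa11 stood at -0.12, 0.14 and 0.42, and Hoxb13 at 0.58, 0.65 and 0.65. All but Hoxa13 and Hoxd10 had means below the array medians. The Hox mean averaged 7.02 ± 0.35 in DSS with MTA (SD, n = 6), 7.07 ± 0.24 in DSS (SD, n = 6) and 7.23 ± 0.43 in control (SD, n = 4), and 0 of its 7 genes passed the threshold in any of the 3 comparisons. With the Hox mean as a covariate, the differences for DSS against control turned positive for Scnn1g (0.23 ± 0.38) and Scnn1b (0.16 ± 0.34) and stayed below 0 for Scnn1a (-0.40 ± 0.49).

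Atp12a, a colonic potassium-transporting ATPase, and Fxyd4, a small regulator of the sodium pump, are both known from the distal colon, and they were singled out after their values were seen. Atp12a separated the arrays of every group into high and low ones. It read 7.62 in arrays 1 and 4 of DSS with MTA, against 11.34 to 14.38 in the other 4. In DSS it read 7.84 and 8.20 in arrays 1 and 3, against 12.80 to 14.37 in the other 4, and the control arrays gave 7.15, 12.14, 13.53 and 13.85. The arrays low for Atp12a were also the lowest of their group for Scnn1a, with 8.02 and 7.98 in DSS with MTA, 7.89 and 7.76 in DSS and 8.06 in control. Fxyd4 ran from 5.89 to 11.74 in DSS with MTA, from 6.00 to 9.51 in DSS and from 6.05 to 12.05 in control. The fit was repeated with Atp12a as a covariate, an alternative chosen after seeing the data. Atp12a followed Scnn1a at r = 0.90 of deviations, so smaller errors for Scnn1a come with that choice. The DSS against control difference of Scnn1a was then -0.64 ± 0.24 (limma adjusted p = 0.105) and the DSS with MTA against DSS difference 0.69 ± 0.21 (limma adjusted p = 0.175).

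**Figure D2:**
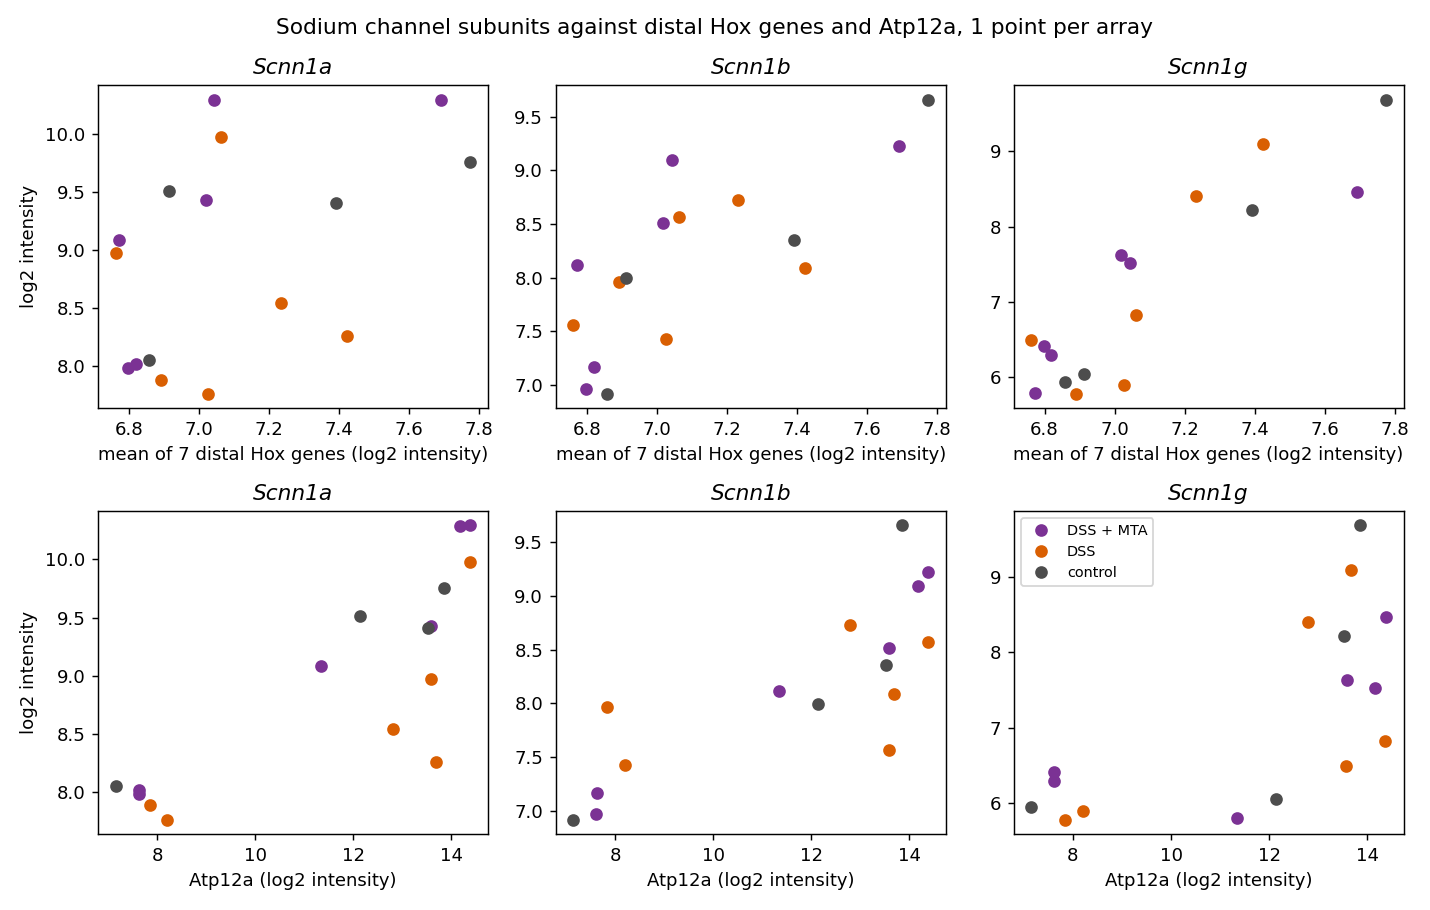
Log2 intensity of Scnn1a, Scnn1b and Scnn1g (vertical axes) against the mean log2 intensity of 7 distal Hox genes (upper row) and against Atp12a (lower row), 1 point per array, coloured by group (6 DSS with MTA, 6 DSS, 4 control). Scnn1g climbs with the Hox mean in all groups (r = 0.90 of deviations from group means), and the arrays with Atp12a at 7.15 to 8.20 have Scnn1a at 7.76 to 8.06.

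Atp1b1, the beta subunit of the sodium pump, was brighter than 99.8% of probes and passed in none of the 3 comparisons. It ran from 13.52 (median 14.35) to 14.47 in DSS with MTA and from 13.67 (median 14.14) to 14.63 in DSS, and the control arrays gave 14.50, 14.02, 14.24 and 14.41. The groups overlapped. The difference was -0.13 ± 0.21 for DSS against control (95% interval -0.57 to 0.32, limma adjusted p = 0.790) and 0.00 ± 0.19 for DSS with MTA against DSS (-0.40 to 0.40, limma adjusted p = 0.997). Relative to control, DSS with MTA gave -0.13 ± 0.21 (-0.57 to 0.31, limma adjusted p = 0.844). These intervals are narrower than those of the channel subunits.

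Nr3c1, the glucocorticoid receptor, was the steadiest of the 8 genes, but its probe was dim. Group means were 7.35 to 7.48, beside array medians of log2 6.81, so its differences and spread may be understated. Nr3c1 ran from 7.18 (median 7.39) to 7.52 in DSS with MTA and from 7.21 (median 7.27) to 7.62 in DSS. The control arrays gave 7.64, 7.51, 7.40 and 7.38. Of the 6 DSS arrays, 4 lay below every control array, while 1 lay above the control mean. The difference was -0.14 ± 0.09 for DSS against control (95% interval -0.34 to 0.06, limma adjusted p = 0.446) and 0.02 ± 0.08 for DSS with MTA against DSS (-0.16 to 0.20, limma adjusted p = 0.953). DSS with MTA against control gave -0.12 ± 0.09 (-0.32 to 0.08, limma adjusted p = 0.638).

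Sgk1, the kinase between corticosteroid signals and the sodium channel, was lower in most treated arrays of both kinds without passing the test. It ran from 12.07 (median 12.56) to 13.22 in DSS with MTA and from 12.40 (median 12.95) to 13.52 in DSS. Its control arrays gave 13.86, 13.14, 13.35 and 13.38. In each treated group 5 of 6 arrays lay below every control array and 1 overlapped them. The difference was -0.78 ± 0.23 for DSS with MTA against control (95% interval -1.27 to -0.28, limma adjusted p = 0.101). It was -0.54 ± 0.23 for DSS against control (-1.04 to -0.05, limma adjusted p = 0.187). Between DSS with MTA and DSS it was -0.23 ± 0.21 (-0.68 to 0.21, limma adjusted p = 0.707).

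Hsd11b2, which protects the mineralocorticoid receptor from glucocorticoids, was likewise lower in treated arrays without passing. It ran from 9.94 (median 10.30) to 10.49 in DSS with MTA and from 9.26 (median 10.23) to 10.87 in DSS, and the control arrays gave 10.62, 10.75, 10.94 and 11.35. All 6 arrays of DSS with MTA lay below all 4 control arrays, whereas 4 of 6 DSS arrays did. The difference was -0.64 ± 0.27 for DSS with MTA against control (95% interval -1.20 to -0.07, limma adjusted p = 0.258). For DSS against control it was -0.71 ± 0.27 (-1.28 to -0.15, limma adjusted p = 0.125), and with array weights alone it passed at -0.80 (limma adjusted p = 0.0416). Over all alternatives the limma adjusted p for DSS against control ran from 0.0416 to 0.303. Leaving out 1 array moved that difference from -0.85 to -0.53. Between DSS with MTA and DSS the difference was 0.08 ± 0.24 (-0.43 to 0.58, limma adjusted p = 0.935).

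Hsd17b2, an enzyme that oxidises estradiol and testosterone to weaker steroids, was the gene with the smallest p for DSS with MTA against DSS among the 8. It ran from 11.71 (median 11.99) to 12.36 in DSS with MTA and from 11.15 (median 11.32) to 11.82 in DSS. Its control arrays gave 12.78, 11.52, 11.77 and 11.73. All but 1 of the 6 arrays of DSS with MTA lay above every DSS array, and all but 1 of the 6 DSS arrays lay below every control array. The difference was 0.62 ± 0.19 for DSS with MTA against DSS (95% interval 0.22 to 1.02, limma adjusted p = 0.210), and so did not pass. In linear terms the geometric means were 4119 intensity units in DSS with MTA, 2679 in DSS and 3957 in control. For DSS against control the difference was -0.56 ± 0.21 (-1.01 to -0.12, limma adjusted p = 0.124), and without the brightest control array (replicate 1) it was -0.29 (limma adjusted p = 0.350). DSS with MTA against control gave 0.06 ± 0.21 (-0.39 to 0.50, limma adjusted p = 0.938).

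**Figure D3:**
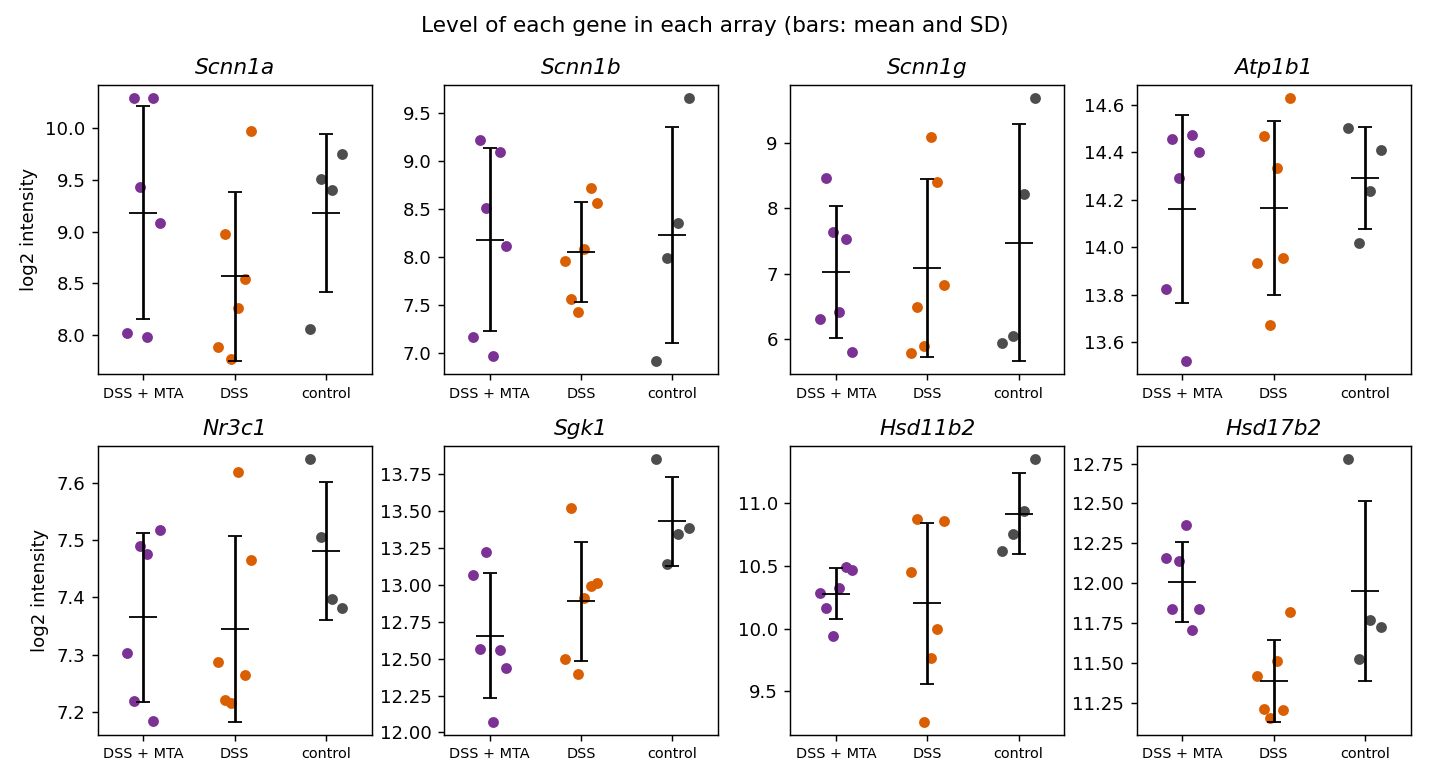
Log2 intensity (vertical axis) of the 8 measured genes in each array of DSS with MTA (6), DSS (6) and control (4), with 1 point per array and bars for the mean and SD. Hsd11b2 of all DSS with MTA arrays lies below all control arrays, and the channel subunits spread over 1.30 to 3.75 within a group.

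The genes most like each one, by Pearson r of deviations from the group means over 16 arrays among the 12848 brighter probes, differed from gene to gene. Scnn1a was followed by Mptx1, Bglap2 and Sval1 (r = 0.97 each), Scnn1b by Spink1 (0.92), Npc2 (0.92) and Pdzk1ip1 (0.91), and Scnn1g by Trim30a (0.89), Cxcl13 (0.87) and Tmem64 (0.84). Atp1b1 was followed by Ptp4a2, Vegfa and Etfrf1 (0.93 each), and Nr3c1 by Chfr (0.87), Spryd7 (0.84) and Pgrmc1 (0.83). Sgk1 was most like Acot2 (0.83), Pdk4 (0.81) and Sft2d2 (0.79). Hsd11b2 was most like Golga3 (0.87), Ankrd40 (0.82) and Cmtm8 (0.82), and Hsd17b2 was most like Pkig (0.92), the retinoid receptor gene Rxra (0.91) and Bcl2l13 (0.85). These likenesses were searched for and are given without a test.

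Other genes of the same pathways were read from 7 lists, beside 4.12% of all probes that rose and 2.74% that fell for DSS against control. Of 20 regulators and activating proteases of the channel, 1 rose and 1 fell for DSS against control, with a median of -0.10 against -0.02 over all probes. Nedd4l, the ubiquitin ligase that removes the channel from the cell surface, stood at 11.75 ± 0.24 in DSS with MTA (SD, n = 6), 12.21 ± 0.25 in DSS (SD, n = 6) and 11.26 ± 0.26 in control (SD, n = 4). It rose by 0.94 ± 0.15 for DSS against control (limma adjusted p = 0.00172), with all 6 DSS arrays above all 4 control arrays. Relative to DSS, DSS with MTA gave -0.46 ± 0.14 (limma adjusted p = 0.199), lower than the DSS mean in 6 of 6 arrays but not passing. Stk39, a kinase that activates sodium and chloride cotransporters, fell by 0.46 ± 0.12 with DSS (limma adjusted p = 0.0289), with all 6 DSS arrays below the controls, and this call was lost without DSS replicate 2 or 4 or control replicate 2 or 4 (limma adjusted p of 0.0598 to 0.105) and with the smooth muscle mean as a covariate (0.0671). The next in p were the kinase Wnk1 (0.33, limma adjusted p = 0.0773), whose other probes gave 0.07 and 0.06, and the Sgk1 relative Sgk3 (-0.69, limma adjusted p = 0.0821), whose 7 probes disagreed in sign. In DSS with MTA against DSS 0 of the 20 passed, the smallest p being those of Wnk1 (-0.35, limma adjusted p = 0.167, with 0.03 and -0.01 by its other probes) and the protease inhibitor Spint1 (0.31, limma adjusted p = 0.185). Pdpk1, the kinase that activates Sgk1, rose in DSS with MTA relative to control by 0.33 ± 0.08 (limma adjusted p = 0.0383), a call lost in 8 of 16 fits without an array (limma adjusted p up to 0.130, without control replicate 4) and in 4 of 15 other alternatives.

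Of 14 sodium pump subunits and FXYD regulators, 10 had a probe and 1 rose for DSS against control. Atp1b2, another beta subunit of the pump, stood at 7.39 ± 0.30 in DSS with MTA (SD, n = 6), 7.90 ± 0.21 in DSS (SD, n = 6) and 6.99 ± 0.13 in control (SD, n = 4). It rose by 0.91 ± 0.14 with DSS (limma adjusted p = 0.0016), with all 6 DSS arrays above all control arrays. Set against DSS, DSS with MTA gave -0.51 ± 0.13 (limma adjusted p = 0.129). The brightest probe of Fxyd5 gave 1.18 for DSS against control (limma adjusted p = 0.0624), while its other probes passed at 1.06 (limma adjusted p = 0.0461) and 0.88 (limma adjusted p = 0.0293). Fxyd3 gave -0.99 (limma adjusted p = 0.142) and Atp1b3 0.27 (limma adjusted p = 0.209).

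Of 18 other colonic ion transporters 14 had a probe, and 0 passed for DSS against control, where 1 was higher and 5 lower at an unadjusted limma p under 0.05 and the median was -0.28. Of all probes 10% were higher and 11.3% lower at that level. Kcnq1, a potassium channel, gave -1.11 ± 0.33 by its brighter probe (limma adjusted p = 0.0577) and 0.12 by the other, and the potassium channel Kcnn4 gave -0.83 ± 0.30. Kcnma1, another potassium channel, gave 0.56 ± 0.19. Between DSS with MTA and DSS 0 passed, and the scaffold gene Slc9a3r1 gave 0.46 ± 0.13.

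Of 18 genes of corticosteroid synthesis and metabolism 15 had a probe, and 1 rose for DSS against control. H6pd, which supplies the reduced cofactor used by the glucocorticoid-activating enzyme Hsd11b1, stood at 9.50 ± 0.34 in DSS with MTA (SD, n = 6), 9.97 ± 0.20 in DSS (SD, n = 6) and 9.26 ± 0.23 in control (SD, n = 4). It rose by 0.71 ± 0.16 (limma adjusted p = 0.0160), with all 6 DSS arrays above all control arrays, and the call was lost without control replicate 1 or 3 (limma adjusted p of 0.0559 and 0.0582). Its level in DSS with MTA relative to DSS was -0.46 ± 0.15 (limma adjusted p = 0.235). Hsd11b1 itself gave 0.45 ± 0.38 for DSS against control (limma adjusted p = 0.557). Akr1c18, a steroid reductase, had the largest estimate of the list at 2.06 ± 0.90 and did not pass (limma adjusted p = 0.197).

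Of 11 relatives of Hsd17b2 9 had a probe, and Hsd17b14 fell by 0.28 ± 0.08 for DSS against control (limma adjusted p = 0.0497), a call lost in 13 of 16 fits without an array (limma adjusted p up to 0.133, without control replicate 3) and in 9 of 14 other alternatives. Hsd17b10 gave -0.59 ± 0.18 (limma adjusted p = 0.0674) and Hsd17b7 0.35 ± 0.14. Of 15 receptor chaperones, coregulators and sex steroid receptors 12 had a probe. Esr2, an estrogen receptor, fell by 0.54 ± 0.14 by its brightest probe (limma adjusted p = 0.0302), which read below the array medians, while its other probes gave -0.21 and 0.05. That call was lost in 7 of 16 fits without an array (limma adjusted p up to 0.108, without control replicate 4) and in 2 of 12 other alternatives. The receptor chaperones Fkbp4 (-0.65 ± 0.25) and Hsp90aa1 (-0.38 ± 0.17) did not pass.

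Of 15 genes known to be induced by glucocorticoids 14 had a probe, and 3 rose and 0 fell for DSS against control, with a median of 0.25. Dusp1, a phosphatase that switches off stress kinases, stood at 11.48 ± 0.30 in DSS with MTA (SD, n = 6), 12.27 ± 0.45 in DSS (SD, n = 6) and 11.09 ± 0.14 in control (SD, n = 4). It rose by 1.19 ± 0.20 (limma adjusted p = 0.00273). Relative to DSS, DSS with MTA gave -0.80 ± 0.18 (limma adjusted p = 0.101), with all 6 arrays of DSS with MTA below all 6 DSS arrays, without passing. Nfkbia, an inhibitor of NF-kappaB that this factor also induces, rose by 0.45 ± 0.11 (limma adjusted p = 0.0268), a call lost without control replicate 1, 2 or 3 (limma adjusted p of 0.0528 to 0.0963) and with the smooth muscle mean as a covariate (0.0598). Errfi1 rose by 0.71 ± 0.20 (limma adjusted p = 0.0461), a call lost in 12 of 16 fits without an array (limma adjusted p up to 0.135, without control replicate 4) and in 3 of 15 other alternatives. All 3 genes are also known to respond to inflammatory or growth signals, and which signals acted here was not tested. Tsc22d3, a gene that glucocorticoids induce strongly, gave -0.49 ± 0.23 (limma adjusted p = 0.243) and Fkbp5 gave -0.11 ± 0.14 (limma adjusted p = 0.709). Both were singled out after their values were seen. By limma 0 genes of these 7 lists passed in DSS with MTA against DSS. At an unadjusted limma p under 0.05, where 5.54% of all probes were higher and 5.99% lower, 4 of the 20 channel regulators were higher and 2 lower. At that level 2 of the 10 pump genes were lower, 1 of the 14 transporters was higher and 2 lower, and 1 of the 15 corticosteroid metabolism genes was lower. Of the 9 relatives of Hsd17b2 1 was higher, of the 14 glucocorticoid-induced genes 3 were lower, and of the 12 receptor chaperones, coregulators and sex steroid receptors 0 were either.

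**Figure D4:**
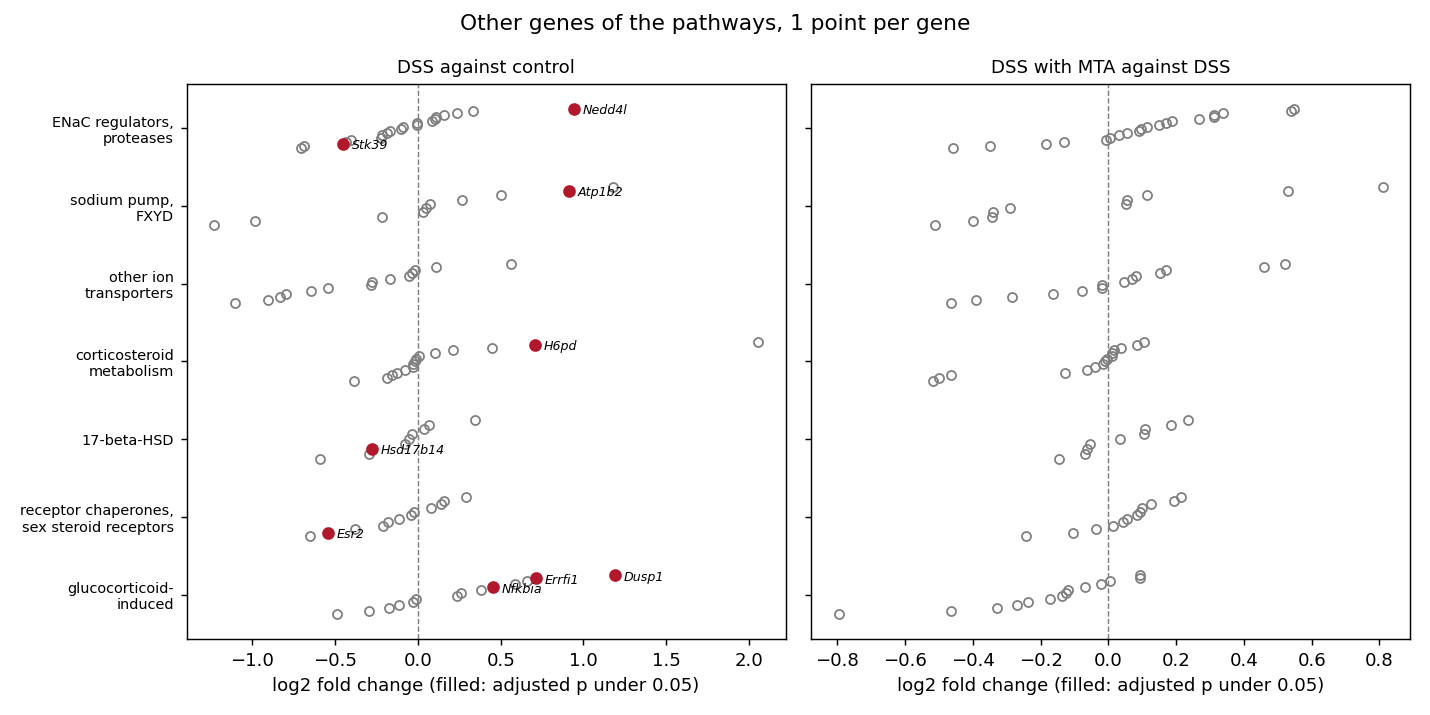
Log2 fold change (horizontal axis) of each measured gene in 7 pathway lists (rows), for DSS against control (left) and DSS with MTA against DSS (right), with filled points for an adjusted p under 0.05 and open points for the rest. Nedd4l, Atp1b2, H6pd, Dusp1, Nfkbia and Errfi1 rose and Stk39, Hsd17b14 and Esr2 fell for DSS against control, and no point is filled for DSS with MTA against DSS.

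Markers of other cell types moved with the treatment. The mean level of 6 neutrophil and macrophage markers was 7.38 ± 0.38 in DSS with MTA (SD, n = 6), 8.02 ± 0.42 in DSS (SD, n = 6) and 6.46 ± 0.15 in control (SD, n = 4). The lowest treated arrays read 6.85 in DSS with MTA and 7.52 in DSS, above the highest control array at 6.63, and 3 of the 6 rose for DSS against control. Of 6 fibroblast markers 3 rose, of 5 endothelial markers 4, of 8 smooth muscle markers 1, and of 6 lymphocyte markers 0, beside 4.12% of all probes. For DSS with MTA against DSS 0 of these markers passed. All 6 fibroblast (median -0.82), 4 of 5 endothelial (-0.62) and all 6 neutrophil and macrophage markers (-0.38) were then below 0, beside 46.7% of all probes. So were 5 of 8 smooth muscle (-0.03) and 0 of 6 lymphocyte markers (0.21). The mean of 11 epithelial markers was 12.65 ± 0.16 in DSS with MTA (SD, n = 6), 12.54 ± 0.08 in DSS (SD, n = 6) and 12.55 ± 0.22 in control (SD, n = 4). Of these 11, Cldn7, a tight junction claudin, fell for DSS against control (-0.31 ± 0.09, limma adjusted p = 0.0417) and rose for DSS with MTA against DSS (0.42 ± 0.08, limma adjusted p = 0.0403). For DSS against control 4 of the 11 were below 0 (56.5% of all probes), with a median of 0.06. For DSS with MTA against DSS 2 of the 11 were below 0 (46.7% of all probes), with a median of 0.06. Of 8 surface colonocyte markers 0 passed in any comparison. With the smooth muscle mean as a covariate, the calls of Stk39, Nfkbia, Hsd17b14 (limma adjusted p = 0.117), Esr2 (0.0692), Errfi1 (0.0560) and Pdpk1 (0.0822) were lost, and with the epithelial mean that of Hsd17b14 (0.0515). Nedd4l, Atp1b2, H6pd and Dusp1 passed for DSS against control with either covariate. No fit used the neutrophil and macrophage, fibroblast or endothelial mean as a covariate, so these fits do not cover those cell types. The part of the other cell types in the differences of the named genes was not tested.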

How the data were processed

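Total RNA of whole colon was amplified, biotin-labelled and hybridised to 16 Illumina 1-colour bead arrays, per the labels' protocols, and samples were grouped by title. The deposited values are the authors' probe intensities on a linear scale. How the authors corrected background is not given in the sources used here. Nearly equal array medians show that arrays had been normalized to each other. The un-normalized table was not used. Its 32 columns of per-sample values are named by array position and were given to no sample, so slides could not be tested as batches.

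Log2 of the intensities entered a linear model per probe (limma 3.58.1, R 4.3.3) of 3 group means over 16 arrays, without covariates. Moderated two-sided tests were adjusted by the Benjamini-Hochberg method over 25697 probes. These steps were tested on simulated data with independent noise for each probe and array. Such data lack the shared variation between genes described above. Gene symbols came from the platform annotation.

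The genes, lists and tests were chosen with earlier results of these data known. All probes of the 9 genes are named. From each pathway list, up to 4 genes with the smallest p in the comparison of DSS to control could be named, and up to 2 in that of DSS with MTA to DSS, through the probe of highest mean. Marker lists could name up to 3. Genes outside this rule are marked where they appear or, as with Pdpk1, Hsd11b1 and the Hox genes, belong to a count or list described. Alternatives covered scaling, background, filters, model, covariates and single arrays.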

Additional observations from a re-analysis of the deposited data

How the results depend on the processing

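Of 735 values of the 8 genes under alternatives, 678 kept direction and side of the threshold, 56 changed sign and 1 passed anew, so that 1 gene passed for DSS against control with array weights (Hsd11b2). Of 305 values of pathway genes past the threshold, 236 kept their call, 69 lost it and 0 changed sign.

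Counts of probes that passed were 1764, 37 and 535 in the comparisons of DSS to control, of DSS with MTA to DSS and of DSS with MTA to control. In the first they were 999 with the upper 25% of probes, 2694 with array weights and 2704 with Atp12a as covariate, an alternative chosen after seeing the data. In the second they were 12 with the upper 25% of probes, 64 with array weights, 10 with the epithelial mean, 433 with the smooth muscle mean and 71 with Atp12a as covariates. In the limma fit of these 2 groups alone 0 passed, with 2627 at an unadjusted p under 0.05. In the third they were 343 with 2 groups alone, 829 with array weights, and 1103, 948 and 1046 with the epithelial mean, the Hox mean and Atp12a as covariates. Leaving out 1 array gave 872 (without control replicate 3) to 2200 (without replicate 2 of DSS with MTA) for DSS against control. It gave 0 (without DSS replicate 2, or replicate 6 of DSS with MTA, with 2156 and 2673 at an unadjusted limma p under 0.05) to 170 (without replicate 2 of DSS with MTA) for DSS with MTA against DSS. It gave 156 (without control replicate 3) to 854 (without replicate 6 of DSS with MTA) for DSS with MTA against control. The number of the 8 genes that passed was 0 in each fit without 1 array. In the other alternatives it was 0 except with array weights for DSS against control, where it was 1 (Hsd11b2).

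The labels number replicates alike in the groups without saying what a number shares. Same-numbered arrays correlated at -0.32 to 0.63 in their deviations. Replicate 1 matched its own number best for DSS and control (r = 0.36), the treated groups (0.63), and DSS with MTA and control (0.42). Replicate 2 did so for DSS and control (0.11) and the treated groups (0.49), and replicate 3 for DSS with MTA and control (0.17). Replicates 4, 5 and 6 did not. Atp12a was low in replicate 1 of each group (7.62, 7.84 and 7.15). It was also low in replicate 4 of DSS with MTA (7.62) and replicate 3 of DSS (8.20). Pairing of all numbers was not shown, and what some numbers share was not tested. With the replicate block 269 probes passed for DSS with MTA against DSS, beside 37 without it. Scnn1a for DSS with MTA against control was then -0.30.

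Sign changes fell on estimates near 0 or on the channel subunits. Between DSS with MTA and control, Scnn1a was -0.00207 with quantile normalization, -0.0085 with normexp, -0.23 with array weights and -0.40 with the smooth muscle mean. With the epithelial mean Hsd17b2 was -0.0681, Scnn1b 0.35 and Scnn1g 0.20, and with the Hox mean -0.00642, 0.37 and 0.32. Between DSS with MTA and DSS, array weights gave Scnn1b -0.0407 and Atp1b1 0.0172. The epithelial mean gave Nr3c1 -0.0381, Scnn1g 0.64 and Atp1b1 0.0155, the Hox mean Scnn1g 0.0935 and Atp1b1 0.00908, and Atp12a Scnn1g 0.0284 and Atp1b1 0.0193. For DSS against control the Hox mean gave Scnn1b 0.16 and Scnn1g 0.23. Leaving out 1 array moved Scnn1b from -0.61 to 0.30 and Scnn1g from -0.91 to 0.34 for DSS against control, both positive without control replicate 4. Between DSS with MTA and DSS the ranges were -0.11 to 0.21 (Hsd11b2), -0.0108 to 0.0749 (Nr3c1), -0.0848 to 0.37 (Scnn1b), -0.35 to 0.34 (Scnn1g) and -0.10 to 0.13 (Atp1b1). Between DSS with MTA and control they were -0.0843 to 0.33 (Hsd17b2), -0.37 to 0.24 (Scnn1a), -0.49 to 0.42 (Scnn1b) and -0.97 to 0.28 (Scnn1g). The cause was not tested. Over all alternatives the limma adjusted p of Hsd17b2 for DSS with MTA against DSS ran from 0.0780 to 0.388, and that of Sgk1 for DSS with MTA against control from 0.0623 to 0.260. Signal over background could not be set per probe, so dim probes such as Scnn1g and Nr3c1 are limited most.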
